A study of Homo sapiens with 9 samples.

Results

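The ETS factors described here are 10 members of a transcription factor family that lie outside the epithelial group of ELF3, ELF5, EHF and SPDEF. They were chosen by symbol: ETS1 and ETS2, the PEA3 subfamily ETV1, ETV4 and ETV5, the repressor ETV6, the ternary complex factors ELK1, ELK3 and ELK4, and ELF1. Each symbol had 1 probe set among the 33297 on the array, so no choice between probe sets was needed. For 9 of the 10 the probe set carried that symbol alone. The probe set of ETV6 was also annotated to INO80D, a chromatin remodelling subunit, so its values are given as those of the shared probe set and it is left out of the counts of members.

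RNA was measured on Affymetrix human gene arrays in T47D, an established luminal breast cancer line with abundant progesterone receptor. All cells carried the retroviral pHUSH vector, from which doxycycline switches on a short hairpin RNA against ELF5, were kept in puromycin and grew in medium with insulin. The 3 groups had 3 arrays each. One received ethanol vehicle, the second the synthetic progestin ORG2058 at 10 nM for 4 days, and the third the same progestin dose over 4 days together with doxycycline at 0.1 µg/ml. Each array held RNA from cells of 3 pooled wells. The labels give no time for the vehicle cells and no batch, so time, batch and treatment cannot be told apart where they coincide. Cells without the hairpin and cells given doxycycline alone were not analysed here, so an effect of doxycycline itself and an effect of the hairpin cannot be told apart.

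ETS factors share a winged helix-turn-helix domain that binds DNA around the letters GGAA. Many of them are switched by the ERK kinase cascade: growth factor receptors act through RAS, RAF and MEK on ERK, which phosphorylates ETS1, ETS2, the PEA3 factors and the ternary complex factors. The ternary complex factors bind DNA beside the serum response factor SRF at immediate early genes such as FOS and EGR1. ETV6 is a repressor, and ELF1 is widely expressed and closely related to ELF2 and ELF4. In mammary epithelium the PEA3 factors are known for roles in branching and in tumours with ERBB2. RNA levels say nothing of phosphorylation, by which much of this control runs.

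The values are log2 levels per probe set as deposited, and differences are log2 changes unless called folds. All adjusted p values come from limma's moderated test over the 21214 probe sets with a symbol, with Benjamini-Hochberg adjustment, and a gene is said to rise or fall where that value was under 0.05. An exact permutation of 3 arrays against 3 reaches no p below 0.1. The experiments of a group are called independent in the design text, but what was repeated is not described further, and every p value rests on the spread among the arrays. The hairpin's target ELF5 had a mean of 10.17 on the vehicle arrays, of 11.28 after progestin and of 10.42 once doxycycline was added, and the drop with doxycycline passed the test (adjusted p = 0.029). With only the 2 groups fitted, or with the replicate number as a block, 0 probe sets were called in that comparison. The same was seen without vehicle replicate 1 or 2, and without replicate 1 or 2 of progestin plus doxycycline. The drop of ELF5 thus did not pass in any of these settings. PGR, the progesterone receptor, fell with progestin from 11.91 to 9.63. Of the markers of T47D luminal epithelium 10 of 10 had a mean above the median probe set, against 1 of 6 endothelial, 1 of 5 immune, 1 of 6 fibroblast and 1 of 4 basal markers. On progestin replicate 3, 87 probe sets with 1 symbol lay below 0 on the log2 scale, against 11 to 36 on each other array.

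With progestin, 2 of the 9 members rose and 1 fell. ETS2 rose 1.66-fold and ELF1 1.36-fold, while ETV4 fell to less than its vehicle level on every array, a 2.26-fold change. The other 6, ETS1, ETV1, ETV5, ELK1, ELK3 and ELK4, did not pass the test. Over all probe sets 29.0% were called in this comparison, 13.4% higher and 15.6% lower, so a count of 3 in 9 is near the share of the whole array. The median change of the 9 was -0.18, beside 0.02 over all probe sets tested. The vehicle and progestin arrays did not overlap for 4 members, beside 42.3% of all probe sets. In RNA from a whole culture, fewer expressing cells and less RNA per cell cannot be told apart.

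**Figure D1:**
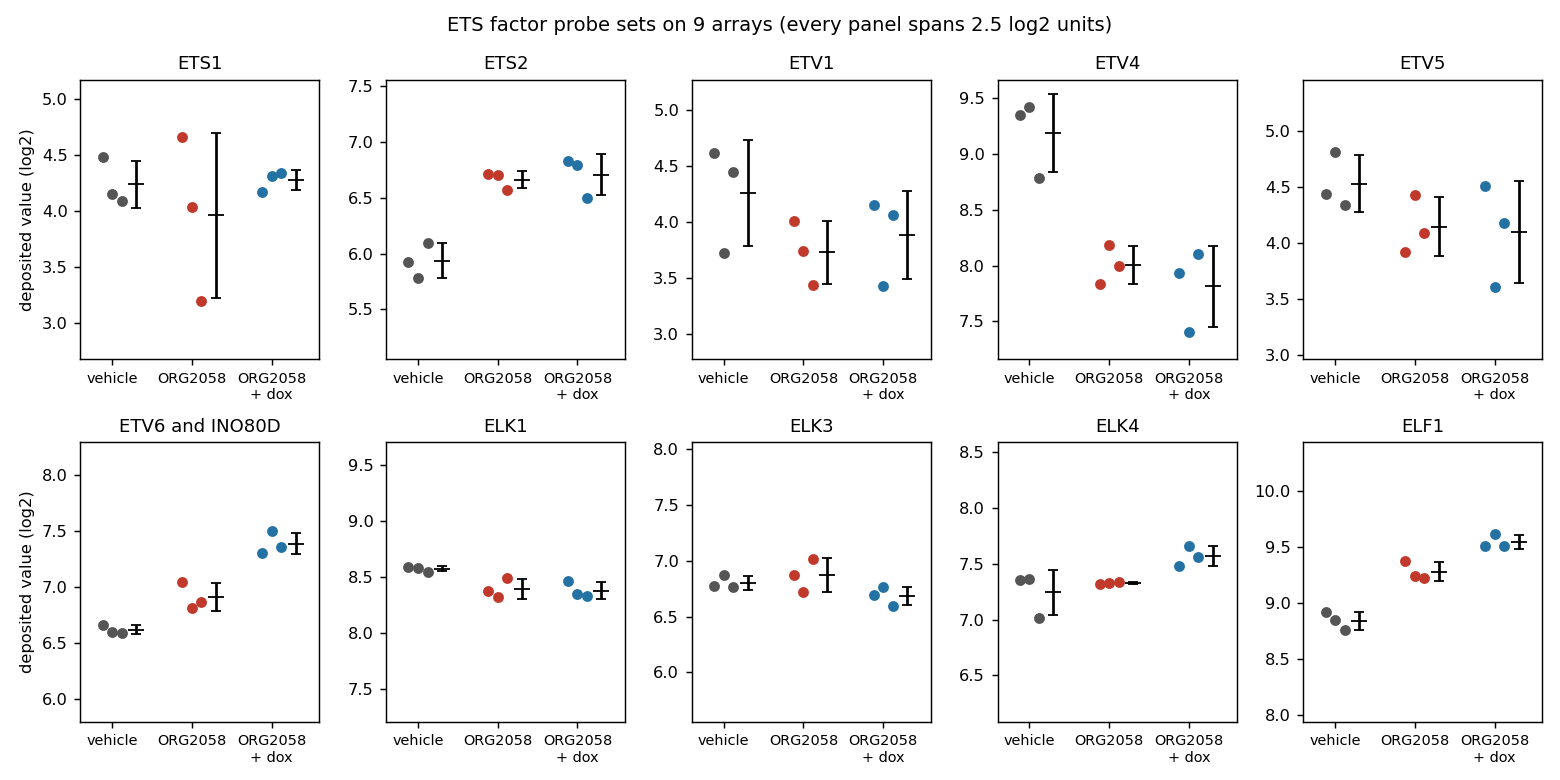
Deposited log2 value of the probe set of each ETS factor (vertical axis, every panel 2.5 log2 units high) on the 9 arrays, by group; points are arrays and the bar beside them is the mean with the SD of 3 arrays. ETV4 lay between 8.78 and 9.42 with vehicle and between 7.41 and 8.18 on the 6 arrays with progestin, while ETS2 and ELF1 lay higher on all 6 than on any vehicle array.

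ETS2 is a founding member of the family and an activator that responds to ERK. Its values were 5.92, 5.78 and 6.10 on the vehicle arrays, 6.71, 6.70 and 6.57 with progestin, and 6.83, 6.80 and 6.49 with progestin plus doxycycline. All 6 arrays with progestin lay above all 3 vehicle arrays, and the groups with and without doxycycline overlapped. The progestin change was 0.73 (SE 0.12, 95% interval 0.46 to 1.00, adjusted p = 0.00206). With doxycycline added, the change against vehicle was 0.77 (SE 0.12, adjusted p = 0.00144), and against progestin alone it was 0.04, with an interval of -0.22 to 0.31. Over the 9 fits that each leave out an array, the progestin change of ETS2 ran from 0.65 to 0.81.

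The upstream sequence of ETS2 is shown because this gene and ELF1 are the members that rose. It comes from RefSeq, as do those of 7 of the 10 members, matched by symbol, and covers the 250 bases before the first listed start, chr21:38804933-38805182 on the plus strand of GRCh38.p14. Capitals mark the ETS core GGAA on either strand, which reads TTCC on the other.
ETS2: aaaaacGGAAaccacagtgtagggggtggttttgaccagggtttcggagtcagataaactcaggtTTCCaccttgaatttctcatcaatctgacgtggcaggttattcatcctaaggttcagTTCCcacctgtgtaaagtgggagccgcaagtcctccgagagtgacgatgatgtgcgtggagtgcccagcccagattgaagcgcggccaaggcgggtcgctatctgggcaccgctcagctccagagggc
It held the core 3 times, which is also the median over the 35116 promoter windows of this length, and 92.7% of those windows held it at least once. The window of the other listed start of ETS2 held the core 6 times, so the count depends on which start is taken. The longer ETS motif CCGGAAGT, on either strand, was in 3.42% of windows and was in neither window of ETS2. The full progesterone receptor motif, GNACA and TGTNC with 3 bases between them and N for any base, was in 0.328% of all windows and in 0 of the 16 windows of the 7 members, which says only that these letters are not in these stretches.

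ETS1 is the other founding member and is best known from lymphoid and endothelial cells. It was at 4.48, 4.15 and 4.09 with vehicle, at 4.66, 4.04 and 3.19 with progestin, and at 4.17, 4.31 and 4.34 with doxycycline added. The 3 progestin arrays spread over more than all the others, and every pair of groups overlapped. The probe set is among the dimmest 25% of those with a symbol, as are those of ETV1 and ETV5. Its progestin change was -0.28 with an interval of -1.0 to 0.45 (adjusted p = 0.572). Without progestin replicate 3 the change was 0.11. PTPRC, the leukocyte marker, was at 3.39, 3.57 and 3.06 in the 3 groups, and the summed linear level of 6 endothelial markers was 747 to 839 with vehicle and 807 to 950.1 with progestin. CDH5 alone made up 73.3% of that sum. With progestin CDH5 and PECAM1 rose by 0.30 and 0.34, CD34 fell by 0.72, and VWF, KDR and TEK did not pass the test.

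The PEA3 subfamily holds ETV4, after which it was first named PEA3, and its relatives ETV1 and ETV5. ETV4 had the lowest change with progestin among the 28 ETS factors listed. It was at 9.35, 9.42 and 8.78 with vehicle, at 7.84, 8.18 and 7.99 with progestin, and at 7.93, 7.41 and 8.10 with doxycycline added. Vehicle replicate 3 was the lowest of its group and still lay above all 6 arrays with progestin. The progestin change was -1.18 (SE 0.22, interval -1.69 to -0.67, adjusted p = 0.00474), and with doxycycline added it was -1.37 against vehicle (SE 0.22, adjusted p = 0.00208). Between the groups with and without doxycycline the difference was -0.19, with an interval of -0.70 to 0.32. Over the 9 fits without 1 array the progestin change ran from -1.38 to -1.06, with an adjusted p of at most 0.0212.

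ETV1 and ETV5 had negative changes that did not pass the test. ETV1 was at 4.61, 3.72 and 4.44 with vehicle, at 4.00, 3.74 and 3.43 with progestin, and at 4.15, 3.43 and 4.06 with doxycycline added. Vehicle replicate 2 lay within the range of the progestin arrays. The progestin change of ETV1 was -0.53 (interval -1.18 to 0.11, adjusted p = 0.203). ETV5 was at 4.44, 4.82 and 4.34 with vehicle, at 3.92, 4.43 and 4.09 with progestin, and at 4.51, 3.60 and 4.18 with doxycycline added. Its groups overlapped too, and its progestin change was -0.39 (interval -0.94 to 0.17, adjusted p = 0.287). After 16 was added to the linear values, which draws in differences of dim probe sets, the 2 changes were -0.27 and -0.22.

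The ternary complex factors had the 3 changes closest to 0 of the 9 in progestin against vehicle. ELK1, an activator that ERK phosphorylates, was at 8.59, 8.58 and 8.55 with vehicle, at 8.38, 8.32 and 8.49 with progestin, and at 8.46, 8.35 and 8.33 with doxycycline added. Each of the 6 arrays with progestin lay below each vehicle array, but the change was only -0.18 (SE 0.07, interval -0.35 to -0.01, adjusted p = 0.108). With limma's array weights the change of ELK1 was -0.21 and passed the test (adjusted p = 0.0146). Against vehicle the change with doxycycline added was -0.20 (adjusted p = 0.0859), and it passed with quantile normalization (adjusted p = 0.0291) and with array weights (0.0213). ELK3, which can act as a repressor, was at 6.77, 6.87 and 6.76 with vehicle, at 6.87, 6.72 and 7.02 with progestin, and at 6.70, 6.76 and 6.60 with doxycycline added. Its progestin change was 0.07 with an interval of -0.15 to 0.28 (adjusted p = 0.657), and without progestin replicate 3 it was -0.0093.

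ELK4, also called SAP1, lay slightly higher with doxycycline. It was at 7.36, 7.36 and 7.01 with vehicle, at 7.32, 7.33 and 7.33 with progestin, and at 7.48, 7.66 and 7.56 with doxycycline added. The 3 doxycycline arrays lay above the other 6, and vehicle replicate 3 lay below the rest. The change against vehicle was 0.32 (SE 0.10, interval 0.08 to 0.56) with an adjusted p of 0.052, and against progestin alone it was 0.24 (adjusted p = 0.357). The call against vehicle was made with 16 added to the linear values (adjusted p = 0.0405), after leaving out the dimmest 25% of probe sets (0.0268), with robust variances that follow a trend (0.0398) and with array weights (0.0463). Progestin alone against vehicle gave 0.08 (interval -0.16 to 0.32).

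Among the 16 windows of the members, that of ELK4 was the 1 with the longer ETS motif, which is why it is shown. It covers chr1:205632012-205632261 on the minus strand of GRCh38.p14, again with the core GGAA or TTCC in capitals.
ELK4: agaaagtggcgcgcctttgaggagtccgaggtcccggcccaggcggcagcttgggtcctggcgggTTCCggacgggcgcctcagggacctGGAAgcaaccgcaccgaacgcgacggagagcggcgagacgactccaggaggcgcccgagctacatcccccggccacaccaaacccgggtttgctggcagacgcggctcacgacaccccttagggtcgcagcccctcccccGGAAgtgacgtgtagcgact
The last capitals stand within the longer motif, shortly before the transcription start. No binding was measured in this study, and the match is a description of the letters only.

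ELF1 is a relative of the hairpin's target, with a broader expression. It was at 8.92, 8.85 and 8.76 with vehicle, at 9.37, 9.24 and 9.22 with progestin, and at 9.51, 9.62 and 9.51 with doxycycline added. The 3 groups did not overlap and lay in that order. The progestin change was 0.44 (SE 0.08, interval 0.26 to 0.62, adjusted p = 0.00334). With doxycycline added the change against vehicle was 0.71 (SE 0.08, adjusted p = 0.000236), a 1.63-fold rise. The step from progestin to progestin plus doxycycline was 0.27 (interval 0.09 to 0.45) and did not pass the test (adjusted p = 0.199). ELF5 itself went the other way in that step, by -0.87.

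The upstream sequence of ELF1 is shown beside that of ETS2 for comparison. It covers chr13:41061387-41061636 on the minus strand of GRCh38.p14, before the first of 3 listed starts.
ELF1: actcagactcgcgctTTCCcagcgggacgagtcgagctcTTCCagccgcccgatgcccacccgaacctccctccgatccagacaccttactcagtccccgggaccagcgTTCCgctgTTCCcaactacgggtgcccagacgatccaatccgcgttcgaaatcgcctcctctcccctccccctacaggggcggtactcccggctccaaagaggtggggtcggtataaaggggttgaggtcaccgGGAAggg
This window held the ETS core 5 times and the longer motif 0 times. The windows of the other 2 starts of ELF1 held the core 0 and 3 times, so the count depends on which start is taken.

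The probe set shared by ETV6 and INO80D had the same order of groups as ELF1. It was at 6.66, 6.59 and 6.59 with vehicle, at 7.05, 6.82 and 6.87 with progestin, and at 7.31, 7.50 and 7.36 with doxycycline added. Again the 3 groups did not overlap. Its progestin change was 0.29 (SE 0.09, adjusted p = 0.0339), and this call was lost without any of 6 arrays: any of the 3 vehicle arrays, replicate 1 or 3 of progestin, or replicate 3 of progestin plus doxycycline (adjusted p up to 0.113). It was also lost with robust variances that follow a trend (0.0709), with only the 2 groups fitted (0.0592), with the replicate number as a block (0.073) and with adjustment over all probe sets of the table (0.0525). Against vehicle the change with doxycycline was 0.77 (SE 0.09, adjusted p = 0.00026), and against progestin alone it was 0.48 (SE 0.09, adjusted p = 0.12). The last passed when the dimmest 25% of probe sets were left out (0.0472) and with robust variances that follow a trend (0.0398). The annotation lists 7 accessions for this probe set, of which 1 is a RefSeq transcript of ETV6 and 0 are RefSeq transcripts of INO80D. The other accessions could not be matched, so these counts do not show which gene is measured. INO80D also has a probe set of its own, which was at 7.30, 7.20 and 7.18 with vehicle, at 7.12, 7.07 and 7.28 with progestin, and at 7.35, 7.52 and 7.29 with doxycycline added. Its changes against vehicle were -0.07 with progestin and 0.16 with doxycycline added, and neither passed the test (adjusted p = 0.594 and 0.252). How much of the shared signal comes from each gene was not measured.

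**Figure D2:**
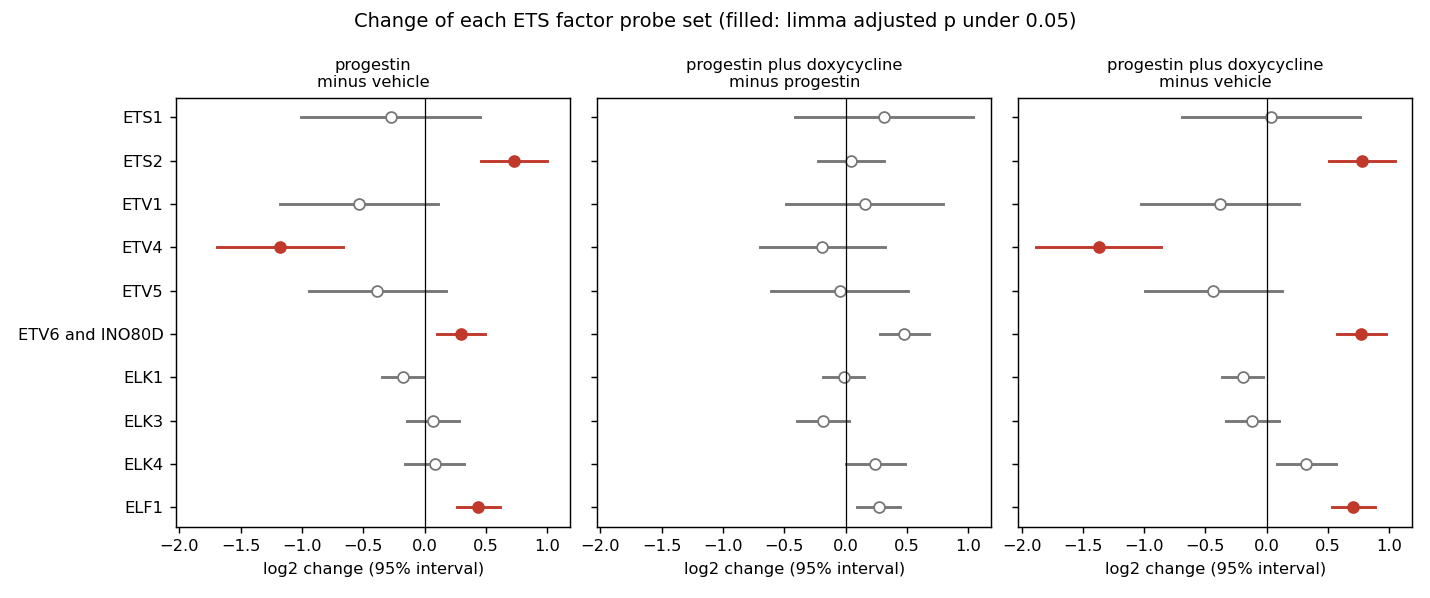
Log2 change of each ETS factor probe set in the 3 comparisons (horizontal axis), with the 95% interval from limma over 9 arrays; filled red points passed an adjusted p of 0.05. ETS2, ELF1 and the shared ETV6 and INO80D probe set lie above 0 and ETV4 below it in both comparisons with vehicle, and no point is filled for doxycycline added to progestin.

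The group with doxycycline was made to learn which progestin responses need the induction of ELF5. No ETS factor described here changed past the threshold in it against progestin alone. Limma called 0 of the 9 members, beside 0.0189% of all probe sets. At an unadjusted p under 0.05 there was 1 member, ELF1, beside 14.0% of all probe sets. ELF1 and ELK4 did not overlap between the 2 groups, beside 21.2% of all probe sets. The changes of the 9 ran from -0.19 for ETV4 to 0.31 for ETS1, with a median of 0.04 beside 0.03 over all probe sets. The 95% interval was narrow for ELK1, -0.19 to 0.15, and wide for the dim ETS1, -0.41 to 1.04, and ETV1, -0.49 to 0.80. For ETV5 it was -0.61 to 0.51.

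Against vehicle, the cells with progestin plus doxycycline showed the same 3 members past the test: ETS2 and ELF1 higher and ETV4 lower. Of all probe sets 28.1% were called there, 15.6% higher and 12.5% lower. The vehicle arrays are shared with the progestin comparison, so the 2 sets of calls are not independent. The arrays did not overlap for 6 of the 9 members, ETS2, ELK4 and ELF1 higher and ETV4, ELK1 and ELK3 lower, beside 41.8% of all probe sets.

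A list of genes known for very long mRNAs was written after a shift of such genes had been seen in these arrays, so its counts describe that shift and are no independent evidence of it. Transcript length itself was not measured. When doxycycline was added to progestin, 37 of the 38 listed genes on the array had a positive change, beside 56.1% of all probe sets. Their median was 0.49, but limma called 0 of the 38, beside 0.0189% of all probe sets. Against vehicle 22 were higher and 0 lower, beside 15.6% and 12.5% of all probe sets. In progestin against vehicle 5 were higher and 9 lower, beside 13.4% and 15.6%, with a median of -0.12. Of the 9 ETS factors 5 had a positive and 4 a negative change when doxycycline was added: 0.31 for ETS1, 0.27 for ELF1, 0.24 for ELK4, 0.15 for ETV1 and 0.04 for ETS2, against -0.02 for ELK1, -0.05 for ETV5, -0.18 for ELK3 and -0.19 for ETV4. The shared ETV6 and INO80D probe set was at 0.48. The part of the long-mRNA shift in these changes was not tested.

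The 18 other ETS factors give the setting. With progestin 6 rose and 3 fell, beside 13.4% and 15.6% of all probe sets. Whether this differs from other genes was not tested. ELF3, EHF, ELF5 and SPDEF, the epithelial group, rose by 2.67, 1.30, 1.11 and 0.60. ETV7, an interferon-induced relative of ETV6, rose by 1.01 (adjusted p = 0.000353) and the repressor ETV3 by 0.68 (adjusted p = 0.00123). GABPA, the widely expressed factor of nuclear genes for mitochondria, fell by 0.51 (adjusted p = 0.0207). ELF2 and ELF4, the closest relatives of ELF1, fell by 0.42 and 0.40 (adjusted p = 0.0111 and 0.00448), the direction opposite to that of ELF1. With doxycycline added, ELF5 was the 1 of the 18 called against progestin alone, beside 0.0189% of all probe sets. Against vehicle 5 were higher and 1 lower, beside 15.6% and 12.5% of all probe sets. ELF2 was the lower one, at -0.39.

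**Figure D3:**
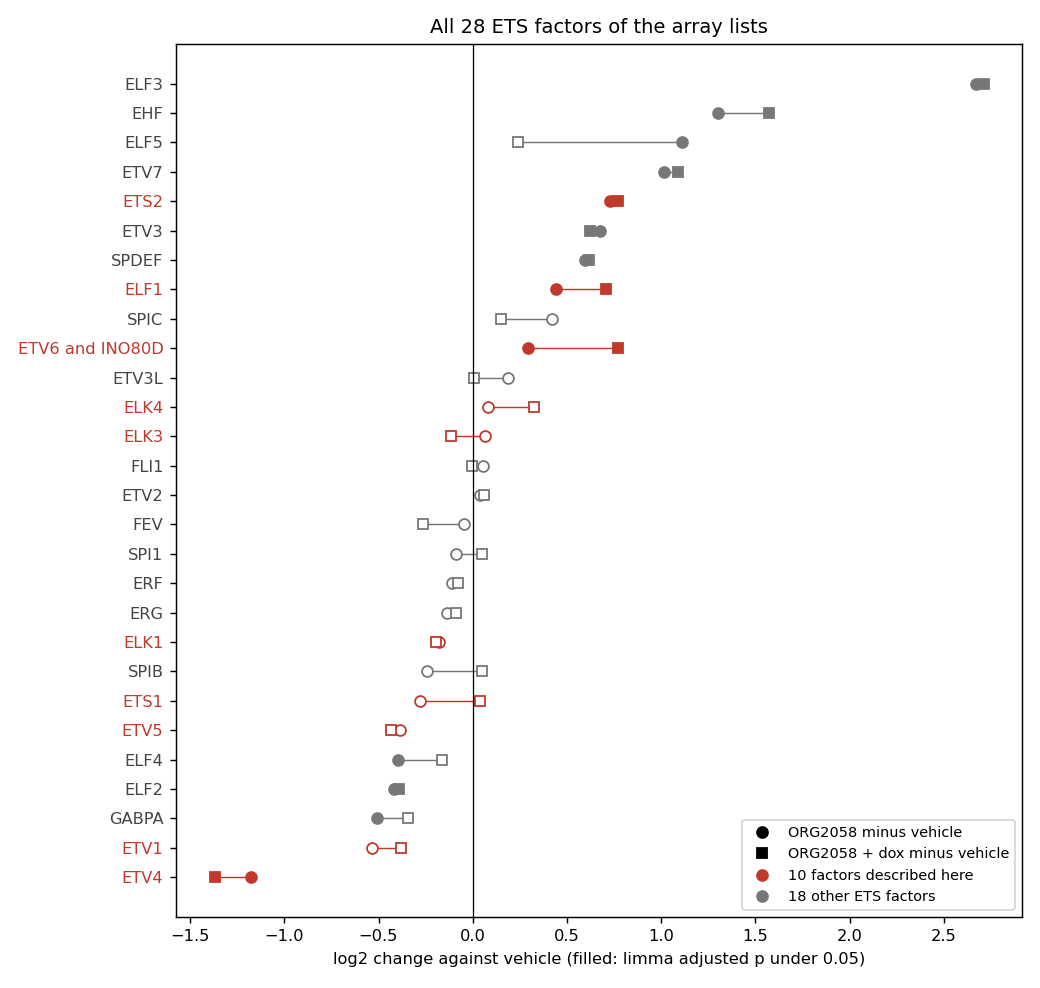
Log2 change against vehicle (horizontal axis) for the 28 ETS factors listed, with circles for progestin and squares for progestin plus doxycycline; red marks the 10 factors described here and filled symbols passed an adjusted p of 0.05. ETV4 has the lowest changes of the 28, at -1.18 and -1.37, and ELF5 shows the widest gap between circle and square, from 1.11 to 0.24.

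Genes of the ERK cascade, which acts on many of these factors, went both ways with progestin. Of 16 measured 3 rose and 3 fell, beside 13.4% and 15.6% of all probe sets, with a median of -0.03. Whether this differs from other genes was not tested. The receptors EGFR and ERBB2 rose by 1.26 each (adjusted p = 3.46e-05 and 4.04e-05). NF1, which switches RAS off, fell by 0.48 and the kinase ARAF by 0.32. Limma called 0 of the 16 when doxycycline was added to progestin, beside 0.0189% of all probe sets. Against vehicle 5 were then higher and 3 lower, beside 15.6% and 12.5% of all probe sets. ERBB2 was at 1.28 and EGFR at 1.74.

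Of 16 transcripts that depend on ERK, 2 rose and 6 fell with progestin, beside 13.4% and 15.6% of all probe sets, with a median of -0.22. Whether this differs from other genes was not tested. EPHA4, an ephrin receptor, fell by 2.43 and CCND1, the G1 cyclin D1, by 0.75. DUSP4, a phosphatase of ERK, rose by 0.79 and PHLDA1 by 0.36. DUSP6 and SPRY4, feedback inhibitors of the cascade and named here after their values were seen, fell by 1.22 (adjusted p = 0.00328) and 0.67 (adjusted p = 0.0291). The other DUSP, SPRY and SPRED genes listed were mixed. SPRED1 fell by 0.82 (adjusted p = 0.00167). DUSP5 at -0.29, SPRY2 at -0.32, SPRY1 at 0.32 and SPRED2 at 0.33 did not pass the test. Limma called 0 of the 16 when doxycycline was added to progestin, beside 0.0189% of all probe sets. Against vehicle 6 were lower and 2 higher, beside 12.5% and 15.6% of all probe sets.

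Among genes bound by SRF and the ternary complex factors, or partners of them, 6 of 20 rose and 3 fell with progestin. The median was 0.03, and the shares of all probe sets were 13.4% and 15.6%. JUNB, an AP-1 subunit, rose by 1.37 and TPM1, a tropomyosin, by 1.03. FHL2, a LIM domain cofactor, fell by 1.53 and the adhesion protein vinculin, VCL, by 0.62. With doxycycline added, 0 of the 20 were called against progestin alone, beside 0.0189% of all probe sets. Against vehicle 7 were higher and 3 lower, beside 15.6% and 12.5%. Of 23 proteases, adhesion and signalling genes known as targets of ETS1 and the PEA3 factors 2 rose and 2 fell with progestin. The median was 0.06, and the shares of all probe sets were again 13.4% and 15.6%. MMP3, a matrix protease, rose by 0.77 and VEGFA, the endothelial growth factor, by 0.47. The integrin subunit ITGB6 fell by 1.76 and the receptor MET by 0.58. The probe sets of MMP3, ITGB6 and MET are among the dimmest 25% of those with a symbol, so their changes are less certain. Here too 0 of the 23 were called with doxycycline added to progestin, beside 0.0189% of all probe sets. Against vehicle 5 were higher and 2 lower, beside 15.6% and 12.5%. Whether either list differs from other genes was not tested.

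For the 3 called members, the genes with the most similar profile were those at the smallest root mean square distance over the 9 arrays, after each gene was centred on its own mean, among 18417 genes. Nearest to ETS2 were TXNIP (distance 0.0703), SLC5A12 (0.0873) and PIGZ (0.0936), in log2 units. ETV4 had no neighbour as close: TENM3-AS1 lay at 0.188, CNTNAP1 at 0.218 and NR5A2 at 0.224. ELF1 lay near MYO5C (0.0347), KDM5A (0.0427) and AFTPH (0.0462), which had doxycycline steps of 0.29, 0.30 and 0.22 beside 0.27 for ELF1. Among the members themselves ETS2 and ELF1 were each other's nearest, at 0.182, and ETV5 was the nearest to ETV4, at 0.446. These distances rank genes with like profiles and carry no test.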

How the data were processed

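RNA was measured on 9 arrays in 3 groups of 3. The authors deposited 1 log2 value per probe set and array. Per the submitters' processing notes, limma, PLIER, Affymetrix Expression Console and Affymetrix Power Tools were used; versions and roles are not given. The background correction and normalization are not given in the sources used here, and the log2 scale was read from the values. PLIER values near 0 become strongly negative on that scale, so changes of dim probe sets are unreliable.

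Of 33297 probe sets the platform annotation gave 1 symbol to 19460, several to 1754 and none to 12083. Here limma 3.58.1 (R 4.3.3) fitted a mean for each group to the 21214 with a symbol, followed by eBayes and Benjamini-Hochberg adjustment. The fit was tested on simulated data. A probe set with several symbols names no gene. All members are named, the other ETS factors called in a comparison, and the 2 lowest p values in each direction of each list. Promoter windows came from RefSeq (GRCh38.p14). The members and lists were chosen with earlier results of these data known. A total of 17 alternative settings was run.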

Additional observations from a re-analysis of the deposited data

How the results depend on the processing

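Calls of ETS2, ELF1 and ETV4 in both comparisons with vehicle held under all 17 alternatives. For doxycycline added to progestin, 0 members were called under any of them. That says little, because most of these settings called at most 15 of all 21214 probe sets in that step. The exceptions were robust variances, with 530 called, and leaving out the dimmest 25%, with 158. The shared ETV6 and INO80D probe set, which is not counted as a member, passed in both of these exceptions. The count of members called for progestin plus doxycycline against vehicle was 3. It was 4 with quantile normalization, where ELK1 joined. It was also 4, with ELK4 joining, after 16 was added, with the dimmest 25% left out and with robust variances. With array weights it was 5, where ELK1 and ELK4 joined, but 41.4% of all probe sets were then called, beside 28.1% as reported. For progestin against vehicle it was 3, and 4 with array weights, where ELK1 joined and 44.8% of all probe sets were called. With the replicate block 3, 0 and 3 members were called in the 3 comparisons. Whether the numbers pair the arrays cannot be decided from 3 arrays per group. Deviations of arrays with the same number correlated between -0.262 and 0.48, and those of arrays with other numbers between -0.507 and 0.284. Of the 9 arrays 0 correlated best with their own number in both other groups.

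The direction turned for changes that passed no test, and the cause was not tested. With quantile normalization ETS1 was at -0.035 in progestin plus doxycycline against vehicle. With array weights ETS1 was at -0.19 there and at -0.0037 for doxycycline added to progestin, where ETV5 was at 0.19 and ELK1 at 0.025, and ELK4 was at -0.021 for progestin against vehicle. With 1 array left out, the progestin change lay between -0.63 and 0.11 for ETS1, -0.0093 and 0.14 for ELK3, and -0.033 and 0.14 for ELK4. The doxycycline step then lay between -0.071 and 0.66 for ETS1, -0.016 and 0.15 for ETS2, -0.34 and 0.013 for ETV4, -0.25 and 0.20 for ETV5, and -0.058 and 0.032 for ELK1. For ETS1 the change against vehicle with doxycycline lay between -0.038 and 0.16. These turns came without vehicle replicate 2 or 3, progestin replicate 2 or 3, or any of the progestin plus doxycycline arrays.

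Over all probe sets the count for progestin was 6161, and 9502 with array weights. The 4 calls of the doxycycline step were 530 with robust variances that follow a trend, 158 once the dimmest 25% were left out, 15 after adding 16 to linear values, 8 with array weights, 0 with only the 2 groups fitted or the replicate block, and 0 to 2 with 1 array left out. No member has another probe set, so that alternative was not run. Precision is limited by the number of arrays, and for ETS1, ETV1 and ETV5 by low signal.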

Other observations

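Of 27 measured partners and regulators of ETS factors, 4 rose and 10 fell with progestin, beside 13.4% and 15.6% of all probe sets. Their median was -0.02. Whether the list differs from other genes was not tested. SP100, a nuclear body protein that binds ETS1 and is induced by interferon, rose by 2.41. RUNX1, which binds DNA together with ETS1, rose by 1.19, while CBFB, the subunit that stabilises RUNX proteins on DNA, fell by 0.84 and RUNX2 by 0.84. RUNX2 and CBFB were named after their values were seen. PPP3CA, a calcineurin subunit, fell by 1.04 and the corepressor SIN3A by 0.75.

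With doxycycline added, 0 of the 27 were called against progestin alone, beside 0.0189% of all probe sets. Against vehicle 8 were higher and 8 lower, beside 15.6% and 12.5% of all probe sets. SP100 at 2.66 and RUNX1 at 1.30 were among the higher, CBFB at -0.94 and PPP3CA at -0.79 among the lower. The related acetyltransferases EP300 and CREBBP, named after their values were seen, were at 0.0035 and 0.07 for progestin against vehicle (adjusted p = 0.984 and 0.546). They were at 0.50 and 0.46 for progestin plus doxycycline against vehicle (adjusted p = 0.00423 and 0.00195). For doxycycline added to progestin they were at 0.50 and 0.39 and did not pass the test (adjusted p = 0.12 each). In that step the listed genes known for very long mRNAs had a median of 0.49. The part of the long-mRNA shift in the changes of EP300 and CREBBP was not tested.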
